A study of Mus musculus with 9 samples.

Results

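The 10 genes described here carry out or control de novo lipogenesis in liver: the regulators Srebf1 and Mlxipl, the enzymes Acly, Acaca, Acacb, Fasn, Me1 and Scd1, and the lipogenesis-linked genes Thrsp and Pnpla3. They were chosen by name for their role, and all 10 were measured, among 19938 genes. Liver RNA of 9 mice was hybridised to Affymetrix arrays, 1 array per animal, in groups of 3. Rescue mice carried the Clock-D19 mutation and were given 35 µg of an expression plasmid for wild-type Clock, in the pLIVE vector, in week 10; hydrodynamic injection pushes a large volume into the tail vein. Clock mutant mice carried Clock-D19 and wild-type mice were C57BL/6J. The mutated CLOCK protein pairs with its partner but activates transcription poorly. All groups had free access to food with 45% fat for 5 weeks from 10 weeks of age, under 12 h of light and 12 h of dark, and were killed at zeitgeber hour 10, counted from lights on. No animal on another diet or at another hour was analysed here. A control injection of the other groups is not described in the labels, and sex is not given in the sources used here. Such injection reaches mainly hepatocytes, and the mutation is carried by every cell of the rescue mice.

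In de novo lipogenesis the liver turns carbohydrate carbon into fatty acids. Citrate exported from mitochondria is split into acetyl-CoA, which is carboxylated to malonyl-CoA and joined by fatty acid synthase into palmitate, at the cost of NADPH. Insulin drives the pathway through SREBP-1c, a product of Srebf1, and glucose drives it through ChREBP, the product of Mlxipl, and in mouse liver many of its genes follow feeding and the time of day.

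Mlxipl was higher in rescue and in Clock mutant livers than in wild-type livers. Thrsp was lower in rescue than in Clock mutant livers. No other member passed the test in any of the 3 comparisons, and the 3 calls just named each depended on single arrays. Values are RMA log2 levels of probe sets, so a difference of 1 is a 2-fold change, and the level of 1 gene cannot be set against that of another. Differences are given with the standard error of the limma model over all 9 arrays, and a gene was called at a Benjamini-Hochberg adjusted p under 0.05 over all 19938 genes.

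RefSeq promoter windows were read for the members, since the arrays read transcript levels and both regulators act on promoters. Of the 10 members 9 matched the RefSeq table (build GRCm38.p6), with 13 windows of 250 bases upstream of annotated starts; Scd1 had no entry. The windows were searched on both strands for the E-box CACGTG, to which CLOCK with its partner and ChREBP bind, for 2 E-boxes separated by 5 bases, a strict form of the carbohydrate response element of ChREBP, for a core of the sterol regulatory element, TCACNCCAC, and for the CCAAT box, CCAAT, which factor NF-Y binds. The paired form contains the E-box, and 2 CCAAT matches of Fasn share bases. The windows of the called genes Mlxipl and Thrsp, and of Fasn, the synthase of the pathway, are shown 5′ to 3′, with the matches in capitals. Mlxipl has 2 annotated starts, 17001 bases apart.
Mlxipl, start 1, chr5:135089640-135089889, + strand: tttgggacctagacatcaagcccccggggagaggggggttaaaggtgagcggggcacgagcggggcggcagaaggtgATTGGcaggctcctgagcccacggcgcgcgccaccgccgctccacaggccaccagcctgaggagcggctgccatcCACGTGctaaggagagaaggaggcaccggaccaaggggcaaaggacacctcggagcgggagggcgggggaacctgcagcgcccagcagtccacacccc
Mlxipl, start 2, chr5:135106641-135106890, + strand: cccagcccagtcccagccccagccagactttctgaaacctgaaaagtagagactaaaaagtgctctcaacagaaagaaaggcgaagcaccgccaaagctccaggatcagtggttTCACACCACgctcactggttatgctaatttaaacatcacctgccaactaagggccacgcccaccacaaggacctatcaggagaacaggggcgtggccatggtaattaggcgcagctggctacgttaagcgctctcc
Thrsp, chr7:97417551-97417800, - strand: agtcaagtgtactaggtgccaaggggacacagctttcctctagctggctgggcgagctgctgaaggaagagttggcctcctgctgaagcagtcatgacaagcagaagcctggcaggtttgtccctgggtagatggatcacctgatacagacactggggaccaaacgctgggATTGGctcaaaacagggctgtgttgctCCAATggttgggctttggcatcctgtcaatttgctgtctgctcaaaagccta
Fasn, chr11:120824548-120824797, - strand: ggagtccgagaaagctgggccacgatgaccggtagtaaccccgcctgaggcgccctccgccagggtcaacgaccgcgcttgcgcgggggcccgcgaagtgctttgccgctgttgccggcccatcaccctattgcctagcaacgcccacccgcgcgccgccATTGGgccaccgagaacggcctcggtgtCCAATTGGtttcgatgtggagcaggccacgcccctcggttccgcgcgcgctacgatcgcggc

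The E-box was found in 1 of the 13 member windows, start 1 of Mlxipl, from base 98 to base 93 before the start, and in 6.02% of all 32851 windows. The sterol element core was found in 1 member window, start 2 of Mlxipl, and in 1.05% of all windows. CCAAT was found in 8 member windows and in 33.8% of all windows; Thrsp had 2 matches and Fasn 3. The paired E-box was found in no window of the table. These are letter matches and not measured binding. Which exons the single Mlxipl probe set covers is not given in the sources used here, so its value cannot be assigned to either start.

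Across all genes the arrays correlated at 0.971 to 0.989. Clock itself, the mutated gene and the gene of the plasmid, had log2 levels of 10.33, 9.41 and 9.62 in rescue, 10.88, 9.89 and 10.55 in Clock mutant and 9.97, 9.24 and 9.30 in wild-type livers. Which exons its probe set covers is not given in the sources used here, so this level does not check the labels. Bhlhe41, a known target of CLOCK, had 4.97, 5.04 and 5.77 in rescue, 4.36, 3.79 and 4.05 in Clock mutant and 7.39, 7.23 and 6.92 in wild-type livers, with no overlap between groups. Nr1d1, another known target, had 10.15, 9.92 and 10.64 in rescue, 8.88, 9.0 and 8.95 in Clock mutant and 9.97, 10.30 and 8.96 in wild-type livers, where wild-type replicate 3 lay at the level of Clock mutant and the rescue mean lay above the wild-type mean. The hepatocyte list (7 of 8 markers measured) had a log2 summed level of 15.17 to 15.36 in rescue, 15.24 to 15.41 in Clock mutant and 15.12 to 15.28 in wild-type livers, and 0 of its members were called in any comparison by limma, with 0 below an unadjusted p of 0.05. In Clock mutant against wild type 3068 genes were called, 1270 higher and 1798 lower, or 610 higher and 2272 lower with each array centred on its median. In rescue against Clock mutant 759 were called, 520 higher and 239 lower, or 780 and 126 with centring and 541 and 438 with quantile normalization repeated. In rescue against wild type 454 were called, 185 higher and 269 lower.

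Among the regulators, Mlxipl separated the groups most clearly. Its log2 level was 9.81, 9.65 and 9.76 in rescue livers, 9.33, 9.61 and 9.52 in Clock mutant livers and 9.20, 9.24 and 8.86 in wild-type livers. All rescue values lay above all Clock mutant values, and these above all wild-type values. Mlxipl was 0.38 ± 0.12 higher in Clock mutant than in wild-type livers, or 1.30-fold (limma adjusted p = 0.0479, n = 3 per group), and 0.64 ± 0.12 higher in rescue than in wild-type livers, or 1.56-fold (limma adjusted p = 0.0121). The difference between rescue and Clock mutant livers, 0.26 ± 0.12, did not pass (limma adjusted p = 0.246).

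The call of Mlxipl in Clock mutant against wild type was close to the threshold. It was lost without Clock mutant replicate 2 (0.32, limma adjusted p = 0.145) or 3 (0.37, 0.114), without wild-type replicate 1 (0.43, 0.061) or 3 (0.26, 0.206), and, through the shared spread alone, without rescue replicate 1 (0.0541), 2 (0.0512) or 3 (0.0658). It was also lost with each array centred on its median (0.31, limma adjusted p = 0.106), with array weights (0.0570) and with the 6 arrays alone (0.0683). The call in rescue against wild type was lost without rescue replicate 1 (0.61, limma adjusted p = 0.0515) or 3 (0.63, 0.0519) and without wild-type replicate 3 (0.52, 0.0601).

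Srebf1, which encodes the SREBP-1 proteins, ran the other way in its means. Its log2 level was 7.68, 7.45 and 7.64 in rescue, 7.69, 8.18 and 7.69 in Clock mutant and 8.08, 8.02 and 7.98 in wild-type livers. All rescue values lay below all wild-type values, while Clock mutant replicate 2 was the highest of the 9 arrays and the other mutant arrays lay at the level of rescue replicate 1. The difference was -0.44 ± 0.13 in rescue against wild type (limma adjusted p = 0.114), -0.18 ± 0.13 in Clock mutant against wild type (0.379) and -0.26 ± 0.13 in rescue against Clock mutant (0.283). The first of these passed without Clock mutant replicate 2, which enters only through the shared spread (limma adjusted p = 0.0375).

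**Figure D1:**
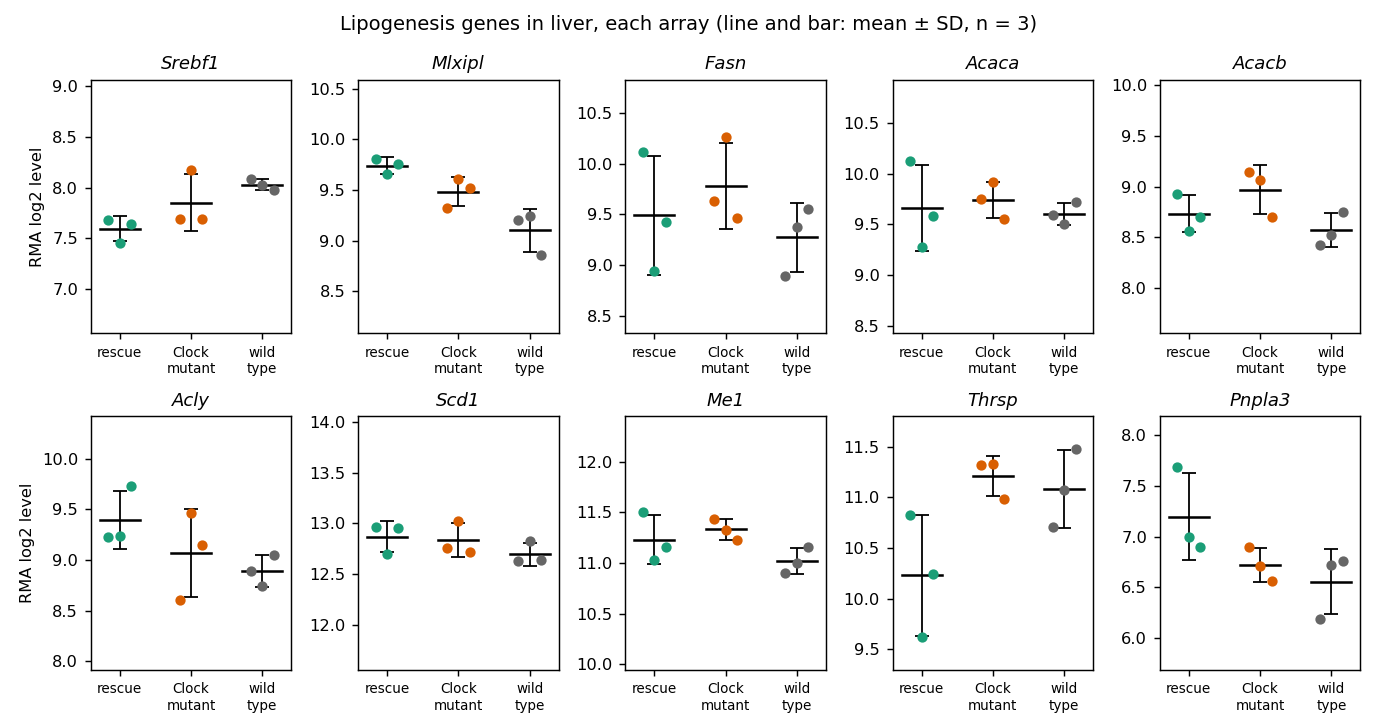
RMA log2 level of each of the 10 genes (y axis, each panel spanning the same range of log2 units) in rescue, Clock mutant and wild-type livers, with each array as a point and the mean and SD of 3 arrays as a line and bar. Mlxipl lies highest in rescue (9.65 to 9.81) and lowest in wild type (8.86 to 9.24), and Thrsp reaches its lowest values in rescue (9.62 to 10.82).

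Acly encodes ATP citrate lyase, which splits cytosolic citrate into acetyl-CoA. Its log2 level was 9.23, 9.24 and 9.73 in rescue, 8.61, 9.46 and 9.15 in Clock mutant and 8.89, 8.74 and 9.05 in wild-type livers. Every rescue value lay above every wild-type value, and the Clock mutant values spread from below the wild-type range into the rescue range. The difference was 0.50 ± 0.19 in rescue against wild type (limma adjusted p = 0.215), 0.33 ± 0.19 in rescue against Clock mutant (0.339) and 0.18 ± 0.19 in Clock mutant against wild type (0.549).

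Acaca and Acacb encode both acetyl-CoA carboxylases. The product of Acaca makes cytosolic malonyl-CoA for synthesis, and that of Acacb makes malonyl-CoA at the mitochondrial surface, where it restrains fatty acid import for oxidation. Acacb had log2 levels of 8.93, 8.57 and 8.70 in rescue, 9.15, 9.07 and 8.70 in Clock mutant and 8.42, 8.53 and 8.75 in wild-type livers. The Clock mutant values overlapped the wild-type values only through Clock mutant replicate 3, which lay below wild-type replicate 3. The difference in Clock mutant against wild type was 0.40 ± 0.14 and just missed the threshold (limma adjusted p = 0.0645, interval 0.11 to 0.70). It passed without Clock mutant replicate 3 (0.54, limma adjusted p = 0.0241), without the dimmest 40% of genes (0.0400), with quantile normalization repeated (0.46, 0.0305), with a trended and robust prior (0.0357) and with the trend on gene span removed (0.46, 0.0413). The difference did not pass under the other 14 of 19 alternative settings, with a limma adjusted p of up to 0.200 (0.32, without Clock mutant replicate 1). Acacb differed by -0.24 ± 0.14 in rescue against Clock mutant (limma adjusted p = 0.343) and by 0.16 ± 0.14 in rescue against wild type (0.687).

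The probe set that stands for Acaca may not lie at the Acaca locus. Numbers of probe sets on this array run along the chromosomes: for 96.8% of 21698 named probe sets the gene lies on the most common chromosome of the 20 nearest numbers. Acaca lies on chromosome 11, and 18 of the 20 neighbours of its brighter probe set lie on chromosome 12 and 0 on chromosome 11, whereas 19 of the 20 neighbours of its dimmer probe set lie on chromosome 11. Which of them reads Acaca transcripts is not settled here.

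The brighter probe set named Acaca had log2 levels of 10.12, 9.28 and 9.58 in rescue, 9.75, 9.91 and 9.55 in Clock mutant and 9.60, 9.50 and 9.72 in wild-type livers. The groups overlapped in all 3 comparisons, and the rescue arrays spanned the lowest and the highest of the 9 values. The difference was 0.13 ± 0.17 in Clock mutant against wild type, -0.08 ± 0.17 in rescue against Clock mutant and 0.06 ± 0.17 in rescue against wild type (limma adjusted p = 0.627, 0.827 and 0.935). Acaca and Me1 each had 2 probe sets, and the brighter one stands for the gene in all counts. The dimmer probe set of Acaca read 8.81, 7.91 and 8.13 in rescue, 8.71, 8.89 and 8.34 in Clock mutant and 8.20, 8.02 and 8.27 in wild-type livers. There all Clock mutant values lay above all wild-type values, by 0.49 ± 0.19 on average (limma adjusted p = 0.108 over 21789 probe sets). It differed by -0.36 ± 0.19 in rescue against Clock mutant and by 0.12 ± 0.19 in rescue against wild type (limma adjusted p = 0.300 and 0.861). None of the 6 differences of these probe sets passed, and only those of the dimmer one come from a probe set whose neighbours lie on the chromosome of Acaca.

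**Figure D2:**
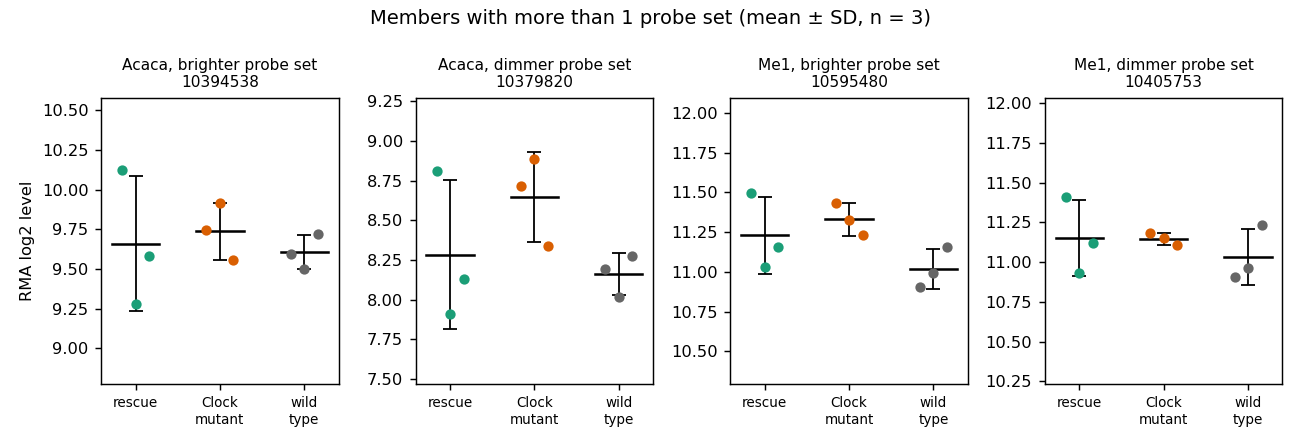
RMA log2 levels (y axis) of both probe sets of Acaca and of Me1 on each array in rescue, Clock mutant and wild-type livers, with mean and SD of 3 arrays. The Clock mutant arrays stand above the wild-type arrays on the dimmer probe set of Acaca (8.34 to 8.89 against 8.02 to 8.27) and on the brighter one of Me1 (11.23 to 11.43 against 10.90 to 11.15), and overlap with them on the others.

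Fasn, which encodes fatty acid synthase, had log2 levels of 10.11, 8.94 and 9.42 in rescue, 9.63, 10.26 and 9.46 in Clock mutant and 8.89, 9.38 and 9.55 in wild-type livers. The groups overlapped, and the rescue arrays alone spanned most of the range. The difference was 0.51 ± 0.26 in Clock mutant against wild type (limma adjusted p = 0.198), with an interval of -0.04 to 1.07, which holds both no difference and a 2-fold rise. It was -0.29 ± 0.26 in rescue against Clock mutant (limma adjusted p = 0.546) and 0.22 ± 0.26 in rescue against wild type (0.798).

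Me1 encodes the cytosolic malic enzyme, a source of NADPH. It had log2 levels of 11.50, 11.03 and 11.16 in rescue, 11.43, 11.33 and 11.23 in Clock mutant and 10.90, 11.00 and 11.15 in wild-type livers. All Clock mutant values lay above all wild-type values, but the difference of 0.31 ± 0.13 did not pass (limma adjusted p = 0.112), and it was 0.11 ± 0.13 on the dimmer probe set (0.579). Me1 lies on chromosome 9, as do 19 of the 20 neighbours of the brighter probe set and 1 of those of the dimmer one, so the dimmer one may not lie at the Me1 locus. Me1 differed by -0.10 ± 0.13 in rescue against Clock mutant (limma adjusted p = 0.684) and by 0.21 ± 0.13 in rescue against wild type (0.510).

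Scd1 encodes the main hepatic stearoyl-CoA desaturase, which makes oleate. Its log2 levels were 12.96, 12.69 and 12.95 in rescue, 12.75, 13.03 and 12.72 in Clock mutant and 12.63, 12.82 and 12.64 in wild-type livers, and all groups overlapped. The differences were 0.14 ± 0.12 in Clock mutant against wild type, 0.03 ± 0.12 in rescue against Clock mutant and 0.17 ± 0.12 in rescue against wild type (limma adjusted p = 0.458, 0.894 and 0.592). Their intervals were -0.12 to 0.39, -0.22 to 0.29 and -0.08 to 0.43 on the log2 scale.

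Thrsp, also called Spot 14, encodes a small nuclear protein of lipogenic tissues that responds to thyroid hormone and carbohydrate. It had log2 levels of 10.82, 9.62 and 10.25 in rescue, 11.32, 11.33 and 10.98 in Clock mutant and 10.70, 11.08 and 11.48 in wild-type livers. All rescue values lay below all Clock mutant values, and rescue replicate 1 lay above wild-type replicate 1. Thrsp fell by 0.98 ± 0.24 in rescue against Clock mutant livers, to 0.507 of the mutant level (limma adjusted p = 0.0407, n = 3 per group). It differed by -0.86 ± 0.24 in rescue against wild type (limma adjusted p = 0.0878, called at -1.15 and 0.0175 without rescue replicate 1) and by 0.13 ± 0.24 in Clock mutant against wild type (0.759).

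The call of Thrsp in rescue against Clock mutant was lost without Clock mutant replicate 1 (-0.93, limma adjusted p = 0.117), 2 (-0.92, 0.114) or 3 (-1.10, 0.0579), without rescue replicate 2 (-0.68, 0.123) or 3 (-0.99, 0.107), and, through the shared spread, without wild-type replicate 2 (0.0523). It was also lost with a trended and robust prior (limma adjusted p = 0.157), with the trend on gene span removed (-0.88, 0.0702) and with each array centred on its median (-0.92, 0.0506). The difference stayed negative in all of these, between -0.68 and -1.28 when single arrays were left out.

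Pnpla3 encodes adiponutrin, a lipid droplet protein whose transcript is induced by SREBP-1c and ChREBP. Its log2 levels were 7.69, 7.0 and 6.90 in rescue, 6.90, 6.71 and 6.56 in Clock mutant and 6.19, 6.73 and 6.76 in wild-type livers. The rescue values lay above those of both other groups, although rescue replicate 3 and Clock mutant replicate 1 were equal when rounded. The difference was 0.64 ± 0.19 in rescue against wild type (limma adjusted p = 0.112), 0.47 ± 0.19 in rescue against Clock mutant (0.179) and 0.17 ± 0.19 in Clock mutant against wild type (0.583).

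Set side by side, the members did not differ between groups as 1 block. In their deviations from group means over the 9 arrays, 38 of 45 member pairs correlated positively (median Pearson r = 0.57). Pairs of other genes were not compared in this way. In Clock mutant against wild type 1 of 10 members was higher, 0 were lower and 9 did not pass, where 15.4% of all genes were called, 6.37% higher and 9.02% lower. The values of 2 members, Mlxipl and Me1, did not overlap, against 35.7% of all genes. The median difference of the members was 0.17 and that of all genes 0.07. Of the 10 differences 9 were positive, Srebf1 being the exception, and 12381 of the 19938 genes were positive.

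In rescue against Clock mutant 1 member, Thrsp, was lower, where 3.81% of all genes were called, 2.61% higher and 1.2% lower. The values of 4 members did not overlap, Mlxipl and Pnpla3 above and Srebf1 and Thrsp below, against 25.7% of all genes. Of the 10 differences 4 were positive and 6 negative, with a median of -0.09 against -0.05 over all genes. In rescue against wild type 1 member, Mlxipl, was higher, where 2.28% of all genes were called, 0.928% higher and 1.35% lower. The values of 4 members did not overlap, Mlxipl, Acly and Pnpla3 above and Srebf1 below, against 19.5% of all genes. The median there was 0.19 against 0.01 over all genes, and 8 of the 10 differences were positive. These comparisons share arrays pair by pair, so a gene's 3 differences are not independent of each other. Ordered by group mean, Mlxipl, Acly, Scd1 and Pnpla3 were highest in rescue and lowest in wild type; Fasn, Acaca, Acacb and Me1 were highest in Clock mutant and lowest in wild type; Thrsp was lowest in rescue and Srebf1 ran from wild type down to rescue.

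**Figure D3:**
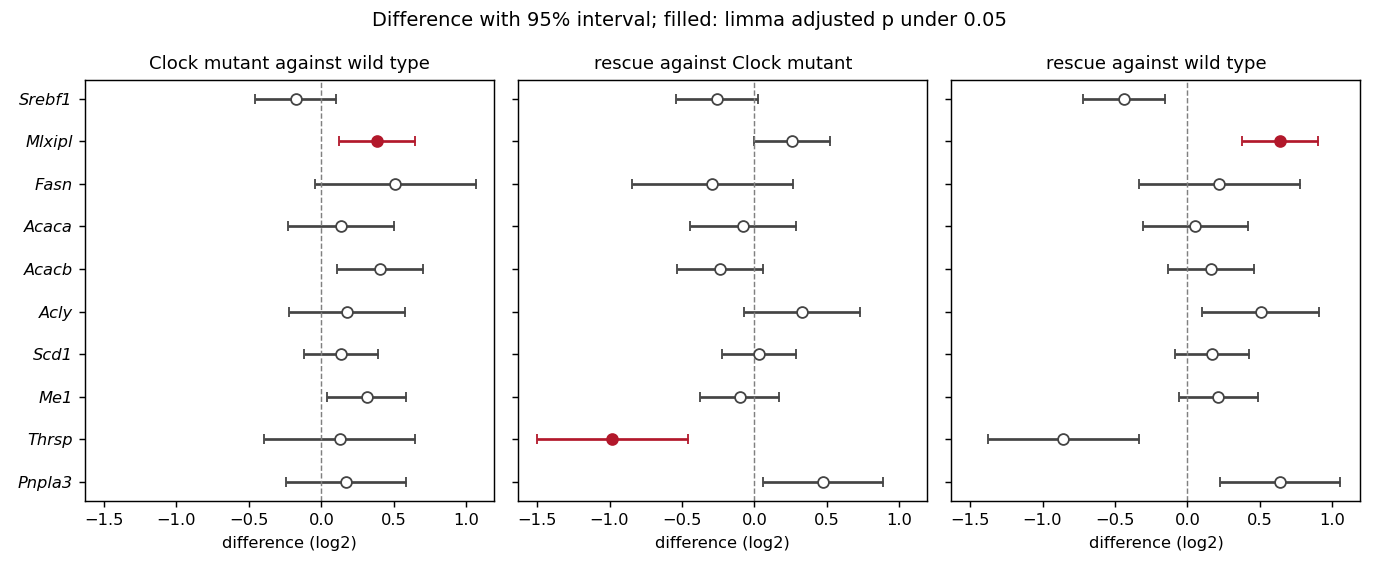
Difference in log2 level (x axis) of the 10 genes (y axis) in Clock mutant against wild type, rescue against Clock mutant and rescue against wild type, with 95% intervals of the limma model, filled where the adjusted p was under 0.05. Filled points are Mlxipl at 0.38 and 0.64 and Thrsp at -0.98, and most other intervals include 0.

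The members varied more between animals of a group than the median gene did. The median SD of the members was 0.26 in rescue, 0.19 in Clock mutant and 0.16 in wild-type livers, where the median gene had 0.13, 0.13 and 0.12. Among the members the widest spread was that of Thrsp in rescue, with an SD of 0.60. By mean level the members lay at percentile 64.6 to 99.96 of all genes, and their spread was not compared with genes of like level. Of the related genes, Elovl6 and Khk had rescue SDs of 0.64 and 0.60, and Insig1 and Prkaa1 of 0.08 and 0.05. On rescue replicate 2 all 10 members lay below their group mean, by 0.09 to 0.61, while 46.9% of all genes did so. Low values on this array were not confined to the members. The related genes Khk (7.77), Tkfc (8.82) and Elovl6 (9.62) also had their lowest rescue value there, while Pklr (9.46) and Sirt1 (7.82) had their highest. On rescue replicate 1 the members other than Acly, 9 of 10, lay above it, while 45.0% of all genes did so, and Fasn, Thrsp, Pnpla3 and Acaca exceeded it by 0.62, 0.59, 0.49 and 0.46. Among the rescue arrays Clock was also highest on replicate 1 (10.33) and lowest on replicate 2 (9.41). The same held in the groups for which no plasmid is listed, at 10.88 and 9.89 in Clock mutant and 9.97 and 9.24 in wild-type livers. On Clock mutant replicate 2, where Clock was lowest in its group, 8 members lay above the group mean. On wild-type replicate 1, where Clock was highest in its group, 8 lay below it, as on Clock mutant replicate 3. The part of Clock levels in the members' values was not tested.

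**Figure D4:**
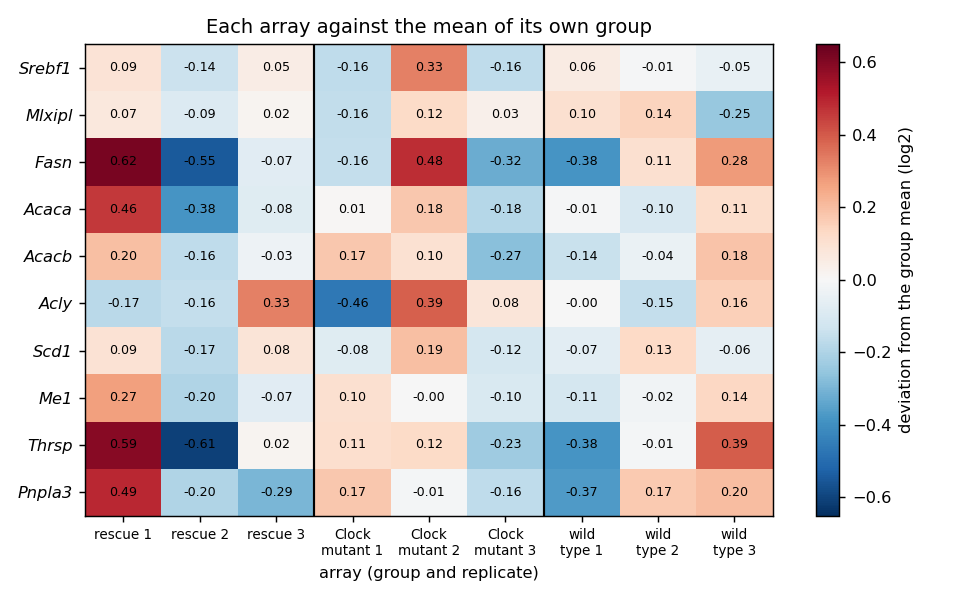
Deviation of each of the 10 genes (rows) from the mean of its own group on each array (columns; rescue, Clock mutant and wild type, 3 arrays each), in log2 units, red above and blue below. Rescue replicate 2 is below its group mean for all 10 genes and rescue replicate 1 is above it for 9.

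The 3 named genes whose levels followed Mlxipl most closely over the 9 arrays, among 18607 compared, were Il22ra1 (Pearson r = 0.98), Zfyve26 (0.98) and Gtf2ird1 (0.95). For Thrsp they were the transporter gene Slco1a4 (0.96), the aminopeptidase gene Enpep (0.94) and Hes6 (0.94). With 9 arrays in 3 groups and so many genes to choose from, r values of this size describe likeness of pattern and no more.

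Around the pathway, 7 of 16 measured genes on the carbon and NADPH supply lists were called higher in Clock mutant livers and none lower. Over all genes 6.37% were called higher. These lists are 2 of 8 roles compared and were singled out after the values were seen. Of the 7 calls, those of Khk, Pgd, Tkt and Taldo1 were lost under 4, 7, 9 and 3 of 19 alternative settings. A list of 82 related genes in 8 roles was compared, of which 73 were measured. In Clock mutant against wild type 11 were higher, 5 were lower and 57 did not pass, or 6 higher and 7 lower with each array centred on its median. The median difference of the 73 was 0.10, against 0.07 for all genes, of which 15.4% were called. Whether the related genes and the members differed from each other in this was not tested.

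Of 11 measured carbon supply genes 4 were higher and none was lower, where 6.37% of all genes were called higher and 9.02% lower. Pcx, which encodes pyruvate carboxylase, had 7.96, 7.71 and 8.02 in rescue, 8.37, 8.43 and 8.41 in Clock mutant and 7.79, 7.72 and 7.80 in wild-type livers. It rose by 0.64 ± 0.11 in Clock mutant against wild type (limma adjusted p = 0.00131) and fell by 0.51 ± 0.11 in rescue against Clock mutant (0.0211), and all values of Clock mutant lay above those of both other groups. The citrate synthase gene Cs had 10.38, 9.92 and 10.13 in rescue, 10.29, 10.23 and 10.27 in Clock mutant and 9.67, 9.64 and 9.75 in wild-type livers, a rise of 0.58 ± 0.12 in Clock mutant against wild type (limma adjusted p = 0.00434); the rescue values all lay above wild type, at 0.46 ± 0.12 (0.0574). Acss2, which makes cytosolic acetyl-CoA from acetate, had 10.73, 10.06 and 10.32 in rescue, 10.78, 10.80 and 10.47 in Clock mutant and 9.96, 9.93 and 9.88 in wild-type livers and rose by 0.76 ± 0.15 in Clock mutant against wild type (limma adjusted p = 0.00380). The fructokinase gene Khk rose by 0.83 ± 0.22 in the same comparison (limma adjusted p = 0.0179). The citrate carrier gene Slc25a1 was at 0.25 ± 0.12 (limma adjusted p = 0.162) and the liver pyruvate kinase gene Pklr at 0.02 ± 0.18 (0.950).

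Of 5 measured genes on the NADPH supply list 3 were higher, where 6.37% of all genes were called higher. They were the pentose phosphate pathway genes Pgd (0.50 ± 0.15), Taldo1 (0.49 ± 0.13) and Tkt (0.38 ± 0.12), with limma adjusted p = 0.0396, 0.0170 and 0.0484. Of these 3 only Pgd encodes an enzyme that itself makes NADPH. Idh1 (0.33 ± 0.12) and Mthfd1 (-0.20 ± 0.12) were not called (limma adjusted p = 0.0662 and 0.272), and G6pdx was not measured. Of 11 regulators of acetyl-CoA carboxylase 2 were lower and none was higher, a share near that of all genes called, and 7 of the 11 differences were positive, with a median of 0.11. Prkaa1, a catalytic subunit gene of AMPK, the kinase that inhibits both carboxylases, had 8.29, 8.23 and 8.32 in rescue, 7.84, 7.96 and 7.99 in Clock mutant and 8.34, 8.32 and 8.49 in wild-type livers, and it fell by 0.46 ± 0.10 in Clock mutant against wild type (limma adjusted p = 0.00691). Trib1, a pseudokinase gene known for restraining lipogenesis in mouse liver, had 7.39, 7.17 and 7.43 in rescue, 6.90, 6.93 and 6.98 in Clock mutant and 7.46, 7.47 and 7.55 in wild-type livers. Trib1 fell by 0.55 ± 0.10 in Clock mutant against wild type (limma adjusted p = 0.00250) and rose by 0.39 ± 0.10 in rescue against Clock mutant (0.0489).

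Of 18 other transcription regulators 4 were called in Clock mutant against wild type. Over all genes 15.4% were called there, 6.37% higher and 9.02% lower. Mlx, the partner gene of ChREBP (0.39 ± 0.12), and the thyroid hormone receptor gene Thra (0.37 ± 0.11) were higher (limma adjusted p = 0.0440 and 0.0352). Sirt1 (-0.46 ± 0.11) and Foxo1 (-0.42 ± 0.12) were lower (limma adjusted p = 0.0108 and 0.0270). The liver X receptor gene Nr1h3, whose product induces Srebf1, was at 0.27 ± 0.14 (limma adjusted p = 0.213). Of 5 other ChREBP targets Tkfc, of fructose metabolism, was higher (0.58 ± 0.17) and Txnip, an inhibitor of thioredoxin and of glucose uptake, was lower (-0.71 ± 0.18), so this list held calls in both directions. The limma adjusted p was 0.0335 for Tkfc and 0.0162 for Txnip. Of 6 mitochondrial fatty acid synthesis genes the malonyl-CoA synthetase gene Acsf3 was higher (0.49 ± 0.12, limma adjusted p = 0.0134). The calls of Mlx, Tkfc, Thra, Foxo1, Txnip, Acsf3 and Sirt1 were lost under 9, 8, 6, 4, 2, 2 and 1 of 19 alternative settings. None of 5 SREBP processing genes and none of 12 genes that use new palmitate was called by limma. Of them 1 and 3 had an unadjusted p under 0.05, as had 6122 of all 19938 genes. Insig1, an SREBP target whose product holds SREBPs in the endoplasmic reticulum, was at -0.22 ± 0.13 (limma adjusted p = 0.280), and the elongase gene Elovl6 at -0.02 ± 0.25 (0.958).

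**Figure D5:**
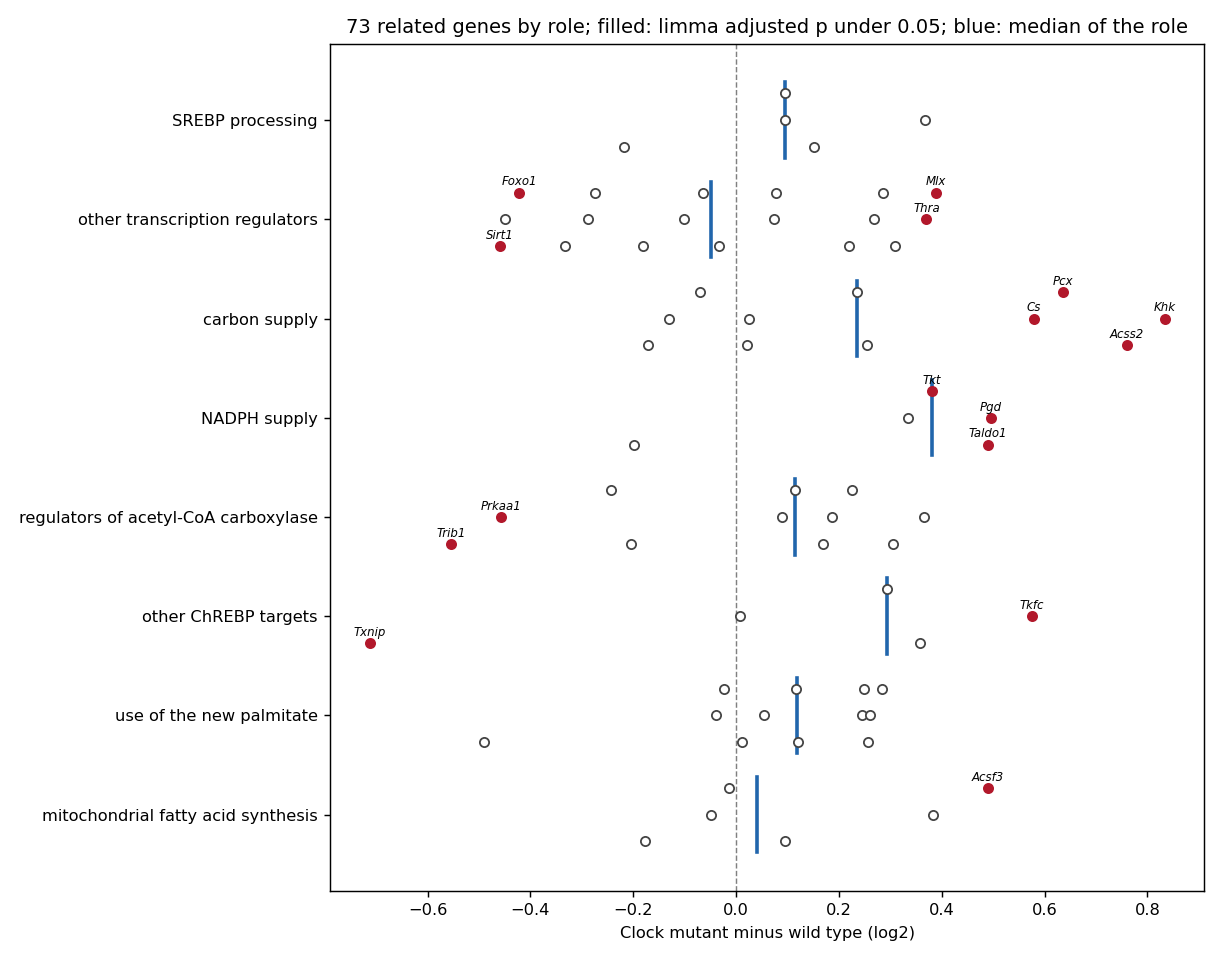
Difference in log2 level in Clock mutant against wild type (x axis) of 73 related genes, 1 point per gene, by role (y axis), filled and named where the limma adjusted p was under 0.05, with the median of each role as a blue line. The carbon supply and NADPH roles hold 4 and 3 filled points, all to the right of 0, and the regulators of acetyl-CoA carboxylase hold 2, both to the left, with a median to the right of 0.

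Of these 16 calls, those of Pcx, Cs, Acss2, Prkaa1 and Trib1 held under all 19 alternatives and the other 11 were lost under at least 1. Without Clock mutant replicate 1, 2 or 3 the losses were 8, 7 and 6, without wild-type replicate 1, 2 or 3 they were 5, 3 and 10, and without rescue replicate 3 they were 2 (limma adjusted p of the lost genes 0.0501 to 0.171). The count of related genes called was 10 without Clock mutant replicate 1, 10 without Clock mutant replicate 2 and 6 without wild-type replicate 3.

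In rescue against Clock mutant 2 of the 73 related genes were called, Trib1 higher and Pcx lower, where 3.81% of all genes were called. In rescue against wild type, where 2.28% of all genes were called, 1 was called, the glycerol-3-phosphate dehydrogenase gene Gpd1, at 0.62 ± 0.15 (limma adjusted p = 0.0462). These counts were 1 higher and 4 lower with quantile normalization repeated and 3 higher and 1 lower with median centring in rescue against Clock mutant, and 0 higher and 1 lower with median centring in rescue against wild type. The call of Trib1 in rescue against Clock mutant was lost when any 1 of the 9 arrays was left out (limma adjusted p = 0.0524 to 0.156). Pcx lost its call without Clock mutant replicate 1 (0.0604), 2 (0.0550) or 3 (0.0594) or rescue replicate 2 (-0.41, limma adjusted p = 0.0760). Gpd1 lost it without Clock mutant replicate 3, any rescue replicate or any wild-type replicate (limma adjusted p = 0.0509 to 0.167).

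Markers of other liver cells differed between the same arrays. In bulk tissue fewer cells of a type and less RNA per cell cannot be told apart. For 7 Kupffer cell markers the log2 summed level was 10.71 to 11.08 in rescue, 10.13 to 10.35 in Clock mutant and 11.70 to 12.13 in wild-type livers, and 5 of 7 were called lower in Clock mutant against wild type, 4 lower in rescue against wild type and 1 higher in rescue against Clock mutant. For 7 endothelial markers it was 10.56 to 10.84 in rescue, 10.23 to 10.35 in Clock mutant and 10.96 to 11.07 in wild-type livers, with 4 lower, 2 lower and 2 higher in those comparisons. For 7 stellate cell markers it was 11.41 to 11.55, 11.08 to 11.17 and 11.51 to 11.66 in the same groups, with 3 lower in Clock mutant against wild type, 0 called in rescue against wild type and 3 higher in rescue against Clock mutant. The stellate sum is carried mainly by Dcn (10.75 to 10.96 in rescue, 10.41 to 10.51 in Clock mutant and 10.93 to 11.04 in wild type); the median difference of the 7 in Clock mutant against wild type was -0.13, and 2 of them, Pdgfrb and Col1a1, were positive. The Kupffer sum has Vsig4 as its largest part, with means of 10.25 in rescue, 9.15 in Clock mutant and 11.29 in wild-type livers. Vsig4 rose by 1.10 ± 0.13 in rescue against Clock mutant (limma adjusted p = 0.00105). The other Kupffer markers differed there by 0.15 to 0.41 and were not called. Over all genes 9.02%, 1.35% and 2.61% were called lower, lower and higher in the 3 comparisons as ordered for the Kupffer markers. The part of the shifts of these marker lists in the members' values was not tested.

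Several members are also strongly expressed in fat tissue, so adipocyte markers were read beside them. The log2 summed level of 7 of 8 listed markers was 8.90 to 9.0 in rescue, 8.89 to 8.99 in Clock mutant and 8.82 to 8.87 in wild-type livers. Adipoq, Plin1, Lep, Retn and Slc2a4 were not called in any comparison. Plin1 was 0.28 ± 0.11 higher in Clock mutant and in rescue than in wild-type livers (limma adjusted p = 0.0913 and 0.2425). Of the list, Fabp4 was higher (0.52 ± 0.12) and Plin4 lower (-0.53 ± 0.09) in rescue against Clock mutant (limma adjusted p = 0.0333 and 0.00987). Over all genes 3.81% were called there. None of the list was called in the other comparisons. In those, 2 of 7 (Plin1 and Plin4, Clock mutant against wild type) and 3 of 7 (Plin1, Fabp4 and Plin4, rescue against wild type) had an unadjusted p under 0.05. So did 6122 and 2840 of all 19938 genes in the same 2 comparisons.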

How the data were processed

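The authors deposited log2 expression values per probe set, 1 column per animal; per the submitters' processing notes RMA and Affymetrix Expression Console were used, with no version stated. RMA corrects for background, forces the arrays to 1 distribution and combines probes, so a change shared by the bulk of genes may be lost and dim probe sets show too small a difference. RNA was extracted with TRIzol and labelled with biotin, per the labels' protocols.

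Of 35556 probe sets, the platform annotation gave 21789 a single gene symbol, 1621 several and 12146 none; 21698 of the single ones matched the RefSeq gene table. For 999 genes with more probe sets the one with the highest mean was kept, which left 19938 genes. All 9 arrays were fitted in 1 model with limma 3.58.1 in R 4.3.3, with 6 residual and 8.47 prior degrees of freedom, and Benjamini-Hochberg adjustment ran over all genes in each comparison. The number of arrays limits the precision. No filter on low values was applied, and all 10 members lay outside the dimmest 40% of genes.

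The members and lists were chosen with earlier results of these data known. The named genes are all members, the related genes called in any comparison and the 3 genes most like each called member. Examples from the related list were chosen after their values were seen (Slc25a1, Pklr, Nr1h3, Insig1, Elovl6, Idh1 and Mthfd1). G6pdx is named as not measured. Predicted genes were not named. The 19 alternatives were a block for replicate number, a filter on dim genes, repeated quantile normalization, median centring, another prior (statmod 1.5.0), array weights, 6 arrays only, the mean of a gene's probe sets, a gene span trend removed (19855 genes), each of the 9 arrays left out, and, added after the data were seen, the dimmest probe set of a gene. Figures were drawn with matplotlib 3.10.9 in Python 3.11.15.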

Additional observations from a re-analysis of the deposited data

How the results depend on the processing

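Of 570 values of a member in a comparison under an alternative, 527 kept their direction and their side of the threshold; the others lost a call (23), gained one (7) or changed sign (13), and in none of those 13 was the difference called with either sign. The causes were not tested. In Clock mutant against wild type 1 member was called; the count was 0 with the replicate block, with median centring, with array weights and with 6 arrays, 2 without the dimmest 40% of genes, with quantile normalization repeated, with the trended and robust prior and with the gene span trend removed, and 0 to 1 with single arrays left out. In rescue against Clock mutant 1 was called, and 0 with median centring, with that prior and with the span trend removed (0 to 1 with single arrays left out); in rescue against wild type 1 was called (0 to 2). Related genes called were 16 (6 to 20 with single arrays left out) in Clock mutant against wild type. In rescue against Clock mutant they were 2 (0 to 6), and 6 without the dimmest 40%, 5 with quantile normalization repeated, 4 with median centring, 5 with the trended and robust prior, 9 with array weights, 1 with 6 arrays and 1 with the dimmest probe sets. In rescue against wild type it was 1 (0 to 1), and 2 with the replicate block, 3 without the dimmest 40%, with quantile normalization repeated, with the trended and robust prior and with array weights, and 0 with the span trend removed. Over all genes the calls were 3068 (1695 to 3130), 759 (200 to 692) and 454 (233 to 501); without the dimmest 40% they were 1178 in rescue against Clock mutant and 711 in rescue against wild type, with the trended and robust prior 1210 and 704, and with array weights 1334 in rescue against Clock mutant. Signs changed for Thrsp in Clock mutant against wild type with the span trend removed (-3e-04; -0.0659 to 0.32 with single arrays left out), for Me1 in rescue against Clock mutant with the dimmest probe set (0.0065), and, with single arrays left out, for Acly (-0.0163 to 0.41) and Pnpla3 (-0.0163 to 0.27) in Clock mutant against wild type, Acaca (-0.31 to 0.11) and Scd1 (-0.0231 to 0.13) in rescue against Clock mutant, and Fasn (-0.0912 to 0.49) and Acaca (-0.18 to 0.25) in rescue against wild type. Same-numbered arrays correlated at -0.11 to 0.19 in their deviations from group means, and 6 of 9 arrays correlated best with their own number. These values do not settle whether the numbers pair the samples. The labels name no pairing, and the main model leaves the numbers out. In Clock mutant against wild type the replicate block gave 3368 calls over all genes and gave Mlxipl an adjusted p of 0.0530 (limma).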
